A study of Saccharomyces cerevisiae with 210 samples.

Results

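The transcriptional response of a yap1 mutant of Saccharomyces cerevisiae to an organic hydroperoxide was examined 3 min after the oxidant was added. The comparison rests on 6 of the 210 arrays of the series, chosen by their titles: 3 yap1 cultures treated with 0.19 mM CHP and 3 untreated yap1 control cultures, all sampled at 3 min. The labels write CHP only, which is read here as cumene hydroperoxide. Wild type at 3 min (3 CHP and 3 control cultures) and 5 other mutants named glr1, gpx1, gpx2, grx1 and grx2 (30 arrays at 3 min) served for comparison. All cultures carry the diploid background BY4743 and grew at 30 °C in 1 L fermentors to mid-exponential phase. The labels call each strain a mutant without giving the allele, whether both copies were changed, or the number of clones. Samples were also taken at 0, 6, 12 and 20 min, and the treated cultures were sampled at 0 min before CHP was added.

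Yap1 is a basic leucine zipper transcription factor that yeast uses to sense peroxides. In budding yeast, the peroxidase Hyr1 (also called Gpx3 or Orp1) passes the oxidizing signal to Yap1 with the help of Ybp1, and a disulfide in Yap1 then hides its nuclear export signal. Nuclear Yap1 activates genes for thioredoxin, glutathione synthesis, peroxide repair and drug efflux. The comparison asks which transcripts still move in response to the oxidant in a yap1 mutant.

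YAP1 itself had a mean log2 signal of 3.50 over the 30 yap1 arrays, with a range of 3.01 to 4.28, against a mean of 6.66 and a range of 5.91 to 7.68 over the 30 wild-type arrays. The genotypes did not overlap. At 3 min it stood at 3.59, 3.31 and 3.60 in the yap1 CHP cultures and at 3.76, 3.35 and 3.79 in the yap1 control cultures. The 14 mating-type and haploid genes checked for the diploid label had log2 signals between 3.03 (STE18) and 7.50 (MFA2) in the 6 yap1 arrays at 3 min, a weak check, since levels of different probe sets cannot be compared. None of the 14 passed the threshold between the yap1 arms at 3 min. One yap1 array stood apart, that of control replicate 1 at 0 min. Its genes deviated from their group means with an SD of 0.44, against 0.11 to 0.27 in the other 29 yap1 arrays and 0.12 to 0.17 in the 6 arrays at 3 min. Before CHP, 357 genes (6.31% of 5656) passed the threshold between the yap1 arms, and limma called 0 without that array (58 at an unadjusted p below 0.05, against 1391 with it). The number also depended on the other cultures. It was 101, 3 and 105 without CHP replicate 1, 2 and 3, and 1249 and 1389 without control replicate 2 and 3. Only GPM3 and PDE2 of the genes called at 3 min were also called at 0 min, and the 3 min means and changes below use no 0 min array, although that array enters the spread that the fit shares over all groups.

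In yap1, CHP still moved a small set of transcripts within 3 min, led by genes of unknown function, the pyruvate carrier gene MPC3, the glucose repressor MIG2 and the phosphatase gene RTS3, while the antioxidant genes that lead in wild type did not pass the threshold. With limma on the deposited log2 values and Benjamini-Hochberg adjustment over 5656 genes at a threshold of 0.05, 28 genes changed (0.495% of those tested). They comprised 21 rises (0.371%) and 7 falls (0.124%), and 569 genes had an unadjusted p below 0.05, 302 higher (5.34%) and 267 lower (4.72%). The rise was at least 2-fold in 9 genes and the fall in 1. The median change over all genes was -0.01 on the log2 scale. The 3 CHP and the 3 control cultures did not overlap for any of the 28, and they did not overlap for 1331 (23.5%) of all genes tested. Without CHP replicate 2 the fit called 15 genes, and without control replicate 2 it called 18. The arrays read bulk RNA, in which fewer cells that express a gene and less of its RNA per cell cannot be told apart.

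**Figure D1:**
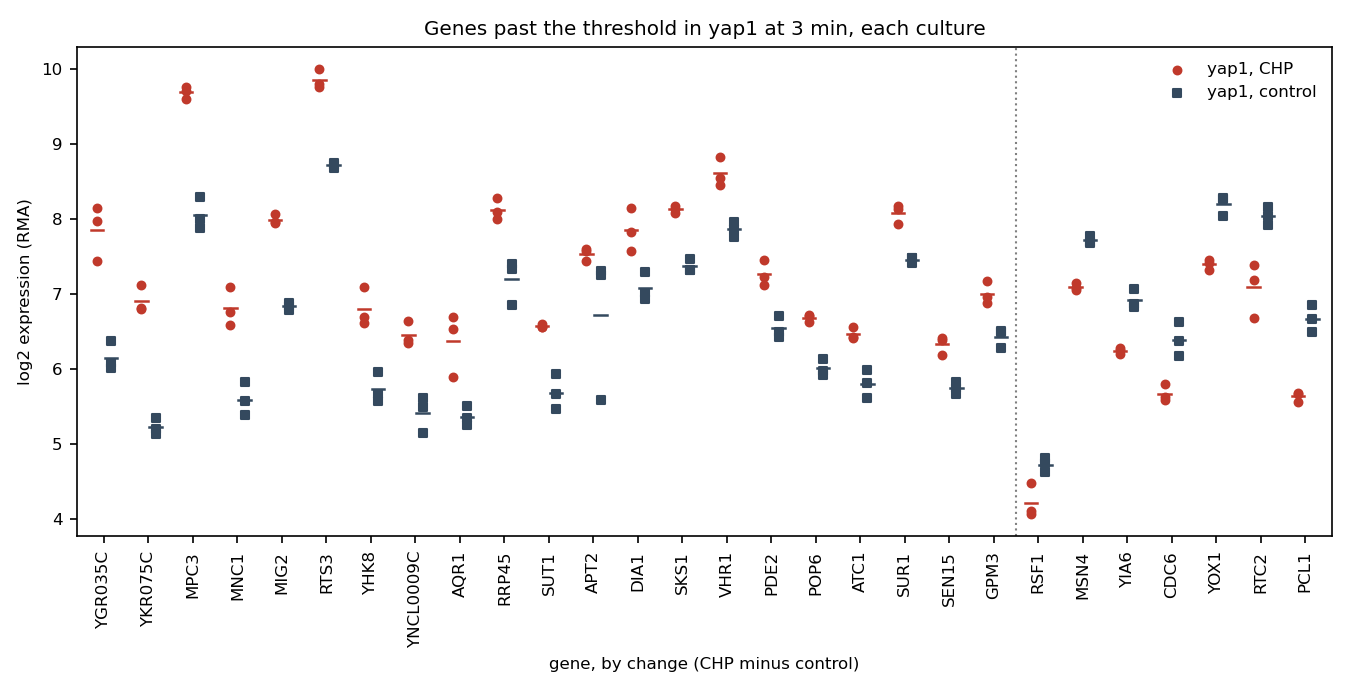
Log2 expression (RMA, vertical axis) of the 28 genes past the threshold in yap1 at 3 min, with CHP cultures as circles and control cultures as squares, 1 point per culture and a line at the mean of 3. Genes run by their change, the dotted line parts the 21 rises from the 7 falls, and 1 APT2 control culture (5.59) lies far below the other two (7.26 and 7.31).

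The largest rises were in a pair of genes of unknown function. YGR035C stood at 7.45, 8.15 and 7.98 in the CHP cultures and at 6.01, 6.37 and 6.08 in the control cultures. It rose 3.26-fold (log2 change 1.70, SE 0.23, n = 3 each, adjusted p 7.56e-08 by limma). YKR075C stood at 6.80, 7.12 and 6.81 with CHP and at 5.21, 5.14 and 5.35 without. It rose 3.20-fold (log2 change 1.68, SE 0.23, adjusted p 7.56e-08 by limma). For both genes the lowest treated culture lay above the highest control by more than the spread within either group.

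Some of the called rises are grouped here by their known roles in carbon metabolism and glucose signalling. MPC3 and MIG2 were among the next largest, and SKS1 and PDE2 rose less. MPC3, a subunit of the mitochondrial pyruvate carrier, stood at 9.77, 9.72 and 9.60 with CHP and at 7.997, 7.88 and 8.30 in controls. It rose 3.11-fold (log2 change 1.64, SE 0.24, adjusted p 6.61e-07 by limma). MIG2, a zinc-finger repressor of glucose-repressed genes, stood at 7.95, 8.06 and 7.96 with CHP and at 6.79, 6.88 and 6.85 in controls, a 2.22-fold rise (log2 change 1.15, SE 0.22, adjusted p 0.000424 by limma). SKS1, a protein kinase tied to growth on low glucose, rose by 0.76 on the log2 scale, a call that was lost without any one of the 6 yap1 cultures, with changes of 0.74 to 0.81. PDE2, the high-affinity cAMP phosphodiesterase, rose by 0.73 and was already higher by 0.53 in the arm to be treated at 0 min. Its call was lost without CHP replicate 2 (0.63) or control replicate 3 (0.67).

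RTS3, a putative part of protein phosphatase 2A, stood at 9.80, 10.0003 and 9.77 with CHP and at 8.69, 8.72 and 8.75 in controls. It rose 2.20-fold (log2 change 1.14, SE 0.19, adjusted p 1.24e-05 by limma). MNC1, a small membrane protein of the CYSTM family, stood at 7.09, 6.76 and 6.58 with CHP and at 5.57, 5.83 and 5.39 in controls, a rise of 1.22 (SE 0.24, adjusted p 0.000618 by limma). Neither gene's groups overlapped.

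A pair of plasma-membrane transporters rose. YHK8, a presumed drug:proton antiporter, stood at 7.10, 6.70 and 6.61 with CHP and at 5.58, 5.96 and 5.67 in controls. It rose 2.10-fold (log2 change 1.07, SE 0.26, 95% interval 0.57 to 1.58, adjusted p 0.0146 by limma). The YHK8 call was lost without CHP replicate 1 (0.92), CHP replicate 2 (1.12), control replicate 1 (0.99) or control replicate 3 (1.04). AQR1, an exporter of amino acids and short-chain acids, stood at 5.89, 6.70 and 6.54 with CHP and at 5.34, 5.51 and 5.25 in controls, a rise of 1.01 (SE 0.22, adjusted p 0.00384 by limma). Its call was lost without CHP replicate 2 (0.85) or CHP replicate 3 (0.93). The rises of both transporters therefore passed the threshold by a narrower margin than those of the leading genes.

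The remaining rises were in genes of varied function. SUT1, a zinc-cluster factor of sterol uptake, stood at 6.60, 6.56 and 6.56 with CHP and at 5.66, 5.46 and 5.93 in controls, a rise of 0.89 (SE 0.15, adjusted p 2.26e-05 by limma). RRP45, a subunit of the RNA exosome, stood at 8.01, 8.28 and 8.10 with CHP and at 7.41, 6.86 and 7.34 in controls, a rise of 0.92 (SE 0.17, adjusted p 0.000121 by limma). POP6, shared by RNase P and RNase MRP, rose by 0.68, and SEN15, of the tRNA splicing endonuclease, by 0.58. YNCL0009C, which the RefSeq annotation lists as a tRNA gene, rose by 1.03, and its probe set may read other RNA from that place, which was not tested. VHR1, a regulator of biotin genes, rose by 0.75, and SUR1, of sphingolipid mannosylation, by 0.62. DIA1, known from invasive growth, rose by 0.78 and ATC1, known from cation stress, by 0.66. SUT1, RRP45 and POP6 kept their calls without any one of the yap1 cultures. Calls of the other 6 genes in this group were lost without single cultures: VHR1 without any of the 6 (0.64 to 0.82), SUR1 without any but CHP replicate 1 (0.58 to 0.64), ATC1 without any but control replicate 2 (0.57 to 0.69) and YNCL0009C without any but control replicate 3 (0.90 to 1.09). The SEN15 call was lost without CHP replicate 2 or 3 or control replicate 1 or 3 (0.54 to 0.58), and the DIA1 call without CHP replicate 1 or 2 or control replicate 1 or 2 (0.63 to 0.79).

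APT2, a near-copy of the adenine phosphoribosyltransferase gene APT1, had a rise that rested on 1 control culture. It stood at 7.44, 7.60 and 7.57 with CHP and at 7.26, 5.59 and 7.31 in controls (log2 change 0.82, adjusted p 0.00175 by limma). Without control replicate 2 the change was 0.26 and did not pass the threshold. GPM3, a phosphoglycerate mutase homologue and the smallest rise (0.58), falls outside the naming rule and is named after its values were seen. It was also higher by 0.46 in the arm to be treated at 0 min, and its call was lost without CHP replicate 2 (0.49), CHP replicate 3 (0.60) or control replicate 2 (0.51).

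The 7 falls included cell-cycle genes, a vacuolar transporter and a stress factor. PCL1, a cyclin of the kinase Pho85, stood at 5.68, 5.67 and 5.57 with CHP and at 6.67, 6.499 and 6.86 in controls. It fell 2.05-fold (log2 change -1.03, SE 0.23, adjusted p 0.00636 by limma). YOX1, a homeodomain repressor of M/G1 genes, stood at 7.45, 7.32 and 7.42 with CHP and at 8.28, 8.27 and 8.04 in controls, a change of -0.80 (SE 0.16, adjusted p 0.000833 by limma). CDC6, which loads the replicative helicase, changed by -0.72. For each of these, all CHP cultures lay below all controls. The PCL1 call was lost without CHP replicate 3 (-0.998) or control replicate 3 (-0.94), and the CDC6 call without CHP replicate 2 (-0.68) or control replicate 2 (-0.60).

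The other falls were RTC2, a vacuolar amino acid transporter, with -0.96, YIA6, the mitochondrial NAD carrier, with -0.67, MSN4, a factor of the general stress response, with -0.62, and RSF1, a regulator of respiratory growth, with -0.51. MSN4 stood at 7.05, 7.08 and 7.15 with CHP and at 7.69, 7.69 and 7.78 in controls. The MSN4 signal was lower in all treated cultures, and its call was lost without CHP replicate 1 (-0.60) or CHP replicate 2 (-0.62). The RTC2 call was lost without any culture but CHP replicate 1 (-1.02 to -0.76) and with the culture as a random block (adjusted p 0.0695 by limma), and the RSF1 call without CHP replicate 1 or 3 or control replicate 1 or 2 (-0.50 to -0.44). Removal of any one of the 6 yap1 cultures left 9 rises and 2 falls called throughout: YGR035C, YKR075C, MPC3, MNC1, MIG2, RTS3, RRP45, SUT1, POP6, YIA6 and YOX1. Calls in 17 genes depended on at least 1 culture, and APT2 was the single one whose change moved by more than 1.5 times.

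When each culture was measured from its own 0 min array, 16 of the 28 calls remained. Changes moved by more than 1.5 times for AQR1 (0.63), MNC1 (0.70, still called), SUR1 (0.20), PDE2 (0.20), GPM3 (0.12), YOX1 (-0.39), MSN4 (-0.28), CDC6 (-0.27) and RSF1 (-0.31). The calls of YNCL0009C (1.01), SKS1 (0.58), ATC1 (0.48) and SEN15 (0.47) were lost as well. This setting includes the array that stood apart, and without its culture the calls were YGR035C, YKR075C, MPC3, MIG2 and RTS3.

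The Yap1 regulon, as a list of 31 genes on the array, had 0 members past the threshold in yap1 by limma (1 at an unadjusted p below 0.05, a rise) and a median change of -0.12, beside -0.01 over all genes. In wild type 13 of the 31 rose (background 0.672%) with a median of 0.62. The response was smaller in yap1 than in wild type for 7 of the 31 (background 0.301%) and smaller than in the 5 other mutants for 17 (background 0.849%). SRX1, the sulfiredoxin that repairs over-oxidized peroxiredoxins, stood at 6.02, 5.80 and 6.12 in yap1 with CHP and at 6.65, 6.47 and 6.60 in yap1 controls. Its wild-type values were 11.10, 12.01 and 11.72 with CHP and 6.35, 6.34 and 6.504 in controls. The yap1 change was -0.60 (SE 0.32, 95% interval -1.23 to 0.04, adjusted p 0.543 by limma), and the wild-type change was 5.21. The yap1 values lay lower with CHP without overlap, but the difference did not pass the threshold.

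The difference of response was tested directly. The yap1 response minus the wild-type response passed the threshold in 20 genes (0.354%), 3 higher (0.053%) and 17 lower (0.301%). Against the mean response of the 5 other mutants, which shares no array with wild type, 50 genes passed (0.884%), 2 higher (0.0354%) and 48 lower (0.849%). Most differences were therefore negative. Without wild-type CHP replicate 1 the difference from wild type held 37 genes, and without wild-type control replicate 3 it held 31. For SRX1 the difference was -5.81 from wild type (adjusted p 1.15e-21 by limma) and -6.05 from the 5 mutants (adjusted p 5.74e-33 by limma).

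**Figure D2:**
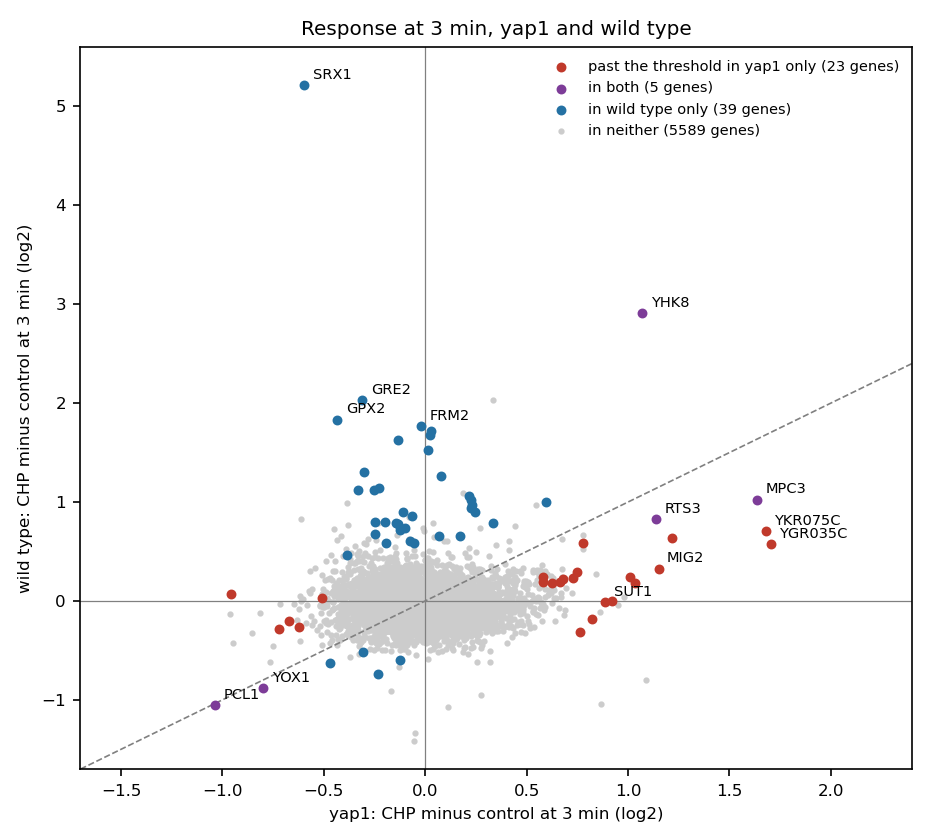
Change at 3 min (CHP minus control, log2) in yap1 on the horizontal axis and in wild type on the vertical axis, 1 point per gene, coloured by whether the gene passed the threshold in yap1, in wild type, in both or in neither. The dashed line marks equal change. SRX1, GRE2, GPX2 and FRM2 lie at or below 0 on the yap1 axis, and YHK8 (1.07 in yap1, 2.91 in wild type) lies right of it.

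The wild-type response at 3 min comprised 38 rises and 6 falls, 44 genes in all (0.778%; falls 0.106%). That total was 81 without wild-type CHP replicate 1, and 19, 25 and 27 without CHP replicate 2, CHP replicate 3 and control replicate 2. Of the 38 rises, 3 were also called in yap1, namely YHK8, MPC3 and RTS3, which is 14.3% of the 21 yap1 rises and 7.89% of the 38. The other 35 had yap1 changes between -0.60 and 0.59. The 95% interval of the yap1 change held 0 for 32 of the 38, lay above it for 5 and below it for 1. The median change of the 38 was -0.07 in yap1 and 0.95 in wild type, where they were chosen. In the contrast with the 5 other mutants, which did not use the wild-type arrays, 29 of the 38 had a smaller response in yap1 (background 0.849%).

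Several of these genes encode oxidoreductases. GRE2, an NADPH-dependent aldehyde reductase, stood at 5.30, 5.86 and 5.28 in yap1 with CHP and at 5.63, 6.03 and 5.71 in yap1 controls, a change of -0.31 against 2.03 in wild type (difference -2.34, adjusted p 1.92e-07 by limma). GPX2, a glutathione peroxidase, changed by -0.43 in yap1 and by 1.83 in wild type (difference -2.27, adjusted p 2.17e-07 by limma). FRM2, a nitroreductase-like protein, changed by -0.02 in yap1 and by 1.77 in wild type. YML131W, a medium-chain reductase family member, changed by 0.03 in yap1 and by 1.72 in wild type. None of these 4 genes passed the threshold in yap1, and each difference from wild type did.

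Genes with other roles had differences of similar size. ISU2, a scaffold for iron-sulfur clusters, changed by 0.02 in yap1 (95% interval -0.38 to 0.43) and by 1.67 in wild type. ROX1, the repressor of hypoxic genes, changed by 0.01 in yap1 (95% interval -0.37 to 0.39) and by 1.53 in wild type. DDR48, a stress-induced protein, changed by -0.30 in yap1 and by 1.31 in wild type, and YLR108C, of unknown function, by -0.14 and 1.62. All 4 differences from wild type passed the threshold (adjusted p 6.06e-05 for ISU2, 0.000112 for ROX1, 1.21e-07 for DDR48 and 0.000829 for YLR108C, limma). FMP48, a putative kinase of mitochondria, changed by 0.21 in yap1 and by 1.06 in wild type, a difference that was not past it (adjusted p 0.544).

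The untreated levels of several of these genes also differed. In a comparison added after the values were seen, yap1 control cultures minus wild-type control cultures at 3 min gave 60 genes past the threshold (1.06%), 19 higher (0.336%) and 41 lower (0.725%). On the log2 scale GRE2 had a difference of -1.94 and YLR108C one of -2.47. GPX2 and YML131W each had -1.16, ROX1 -0.90, TRX2 -0.75 and TRR1 -0.52. SRX1 had 0.18 (adjusted p 0.914) and FRM2 0.20 (adjusted p 0.846), and neither passed. At this signal GPX2 (4.45 to 5.26) and YML131W (4.06 to 4.43) in yap1 were dim, which limits how small a fall could be seen.

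YHK8 was the only one of the 10 largest wild-type rises that also rose in yap1. Its yap1 rise of 1.07 was smaller than the wild-type rise of 2.91 (difference -1.84, 95% interval -2.56 to -1.13, adjusted p 0.000558 by limma) and smaller than the mean of the 5 other mutants (difference -1.82, adjusted p 5e-07 by limma). MPC3 rose by 1.64 in yap1 and by 1.02 in wild type, and RTS3 by 1.14 and 0.83. These differences did not pass the threshold, with 95% intervals of -0.07 to 1.29 for MPC3 and -0.21 to 0.83 for RTS3, so smaller, equal and larger responses in yap1 cannot be told apart. Against the 5 other mutants the difference was 0.03 for MPC3 (adjusted p 0.996) and -0.33 for RTS3 (adjusted p 0.916), and the RTS3 change in yap1 lay below that in each of the 5 (1.29 to 1.68).

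A few responses were larger in yap1. SUT1 changed by 0.89 in yap1 and by -0.01 in wild type (difference 0.90, 95% interval 0.48 to 1.32, adjusted p 0.0116 by limma), while its difference from the 5 mutants, 0.56, was not past the threshold (adjusted p 0.0821). The SUT1 call against wild type was lost without yap1 control replicate 2 (0.79) or wild-type control replicate 1 (0.87). RRP45 changed by 0.92 in yap1 and by -0.00 in wild type, a difference of 0.93 (adjusted p 0.0356), and its difference from the 5 mutants was 0.69 (adjusted p 0.0272). The RRP45 call against the 5 mutants was lost without yap1 CHP replicate 2 (0.61), CHP replicate 3 (0.71) or control replicate 2 (0.52), and the one against wild type without those 3 or 4 of the wild-type cultures (0.75 to 0.96). YNCL0009C differed from the 5 mutants by 1.15 (adjusted p 0.0138), a call lost without yap1 CHP replicate 3 (1.06) or control replicate 1 (1.01). The APT2 difference from wild type was 1.00, and 0.43 without yap1 control replicate 2. YGR035C and YKR075C, the largest yap1 rises, changed by 0.57 and 0.71 in wild type, and their differences of 1.13 and 0.97 did not pass (adjusted p 0.128 and 0.34).

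The 28 genes were also counted in the other genotypes. MPC3, RTS3 and YHK8 rose in all 6 other genotypes, and YKR075C in 5 of them, with changes of 0.71 to 1.51. YGR035C rose in 4 of the 6, with changes of 0.57 to 1.03. For 12 of the 21 rises no other genotype passed the threshold, and for 4 at least 5 did. Of all 21, 3 were larger in yap1 than in wild type and 2 larger than in the 5 mutants by the test of the difference, so the lack of a call elsewhere does not show a difference. AQR1 changed by 0.24 to 0.61 in the 6 other genotypes and POP6 by 0.22 to 0.36. In grx2 8 of the 21 rose (38.1% of these and 10.7% of the 75 rises of grx2). It was 7 in gpx2 (33.3% and 11.5%), 5 in glr1 (23.8% and 7.94%), 5 in gpx1 (23.8% and 8.47%) and 4 in grx1 (19% and 7.14%). Over all genes tested, 1.33% rose and 0.159% fell in grx2, 1.08% and 0.124% in gpx2, 1.11% and 0.194% in glr1, 1.04% and 0.159% in gpx1, and 0.99% and 0.106% in grx1. Of the 7 falls, PCL1 and YOX1 fell in all 6 other genotypes, and no other genotype passed for RTC2 and RSF1. In wild type the shared pair is 28.6% of the 7 yap1 falls and 33.3% of its own 6. PCL1 changed by -1.03 in yap1 and by -1.06 in wild type (95% interval of the difference -0.63 to 0.67), and YOX1 by -0.80 and -0.88 (interval -0.36 to 0.52).

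**Figure D3:**
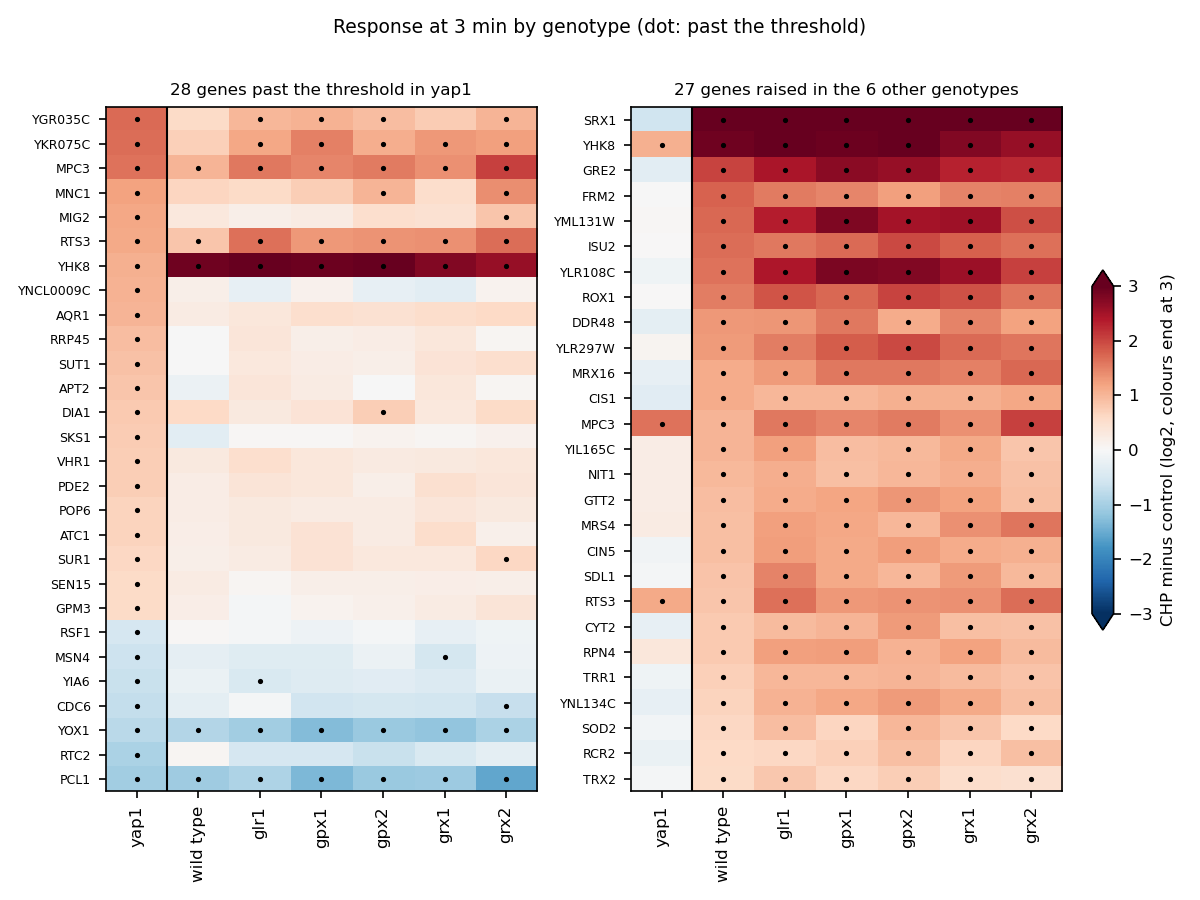
Change at 3 min (CHP minus control, log2, colour) in yap1, wild type and the 5 other mutants for the 28 genes past the threshold in yap1 (left) and for the 27 genes that rose in all 6 other genotypes (right), with a dot where a gene passed the threshold in that genotype. On the right, 3 of 27 genes carry a dot in yap1, YHK8, MPC3 and RTS3.

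A set of 27 genes rose at 3 min in wild type and in each of the 5 other mutants. In yap1 3 of them were called, and the other 24 changed by -0.60 to 0.33, with a median of -0.06 over the 27. The response was smaller in yap1 than in the 5 mutants for 23 of the 27. Since the 27 were chosen on those arrays, this count describes the set and is no independent test. For MPC3, RTS3, YIL165C and NIT1 the difference from the 5 mutants did not pass the threshold, which does not show an equal response. YIL165C had a yap1 change of 0.22, below the lowest change of any other genotype (0.82). The same held for NIT1 (0.23, lowest elsewhere 0.89). RTS3 had a difference of -0.33 and MPC3 one of 0.03. The proteasome regulator RPN4 changed by 0.33 in yap1 (95% interval 0.04 to 0.63, adjusted p 0.43) and by 0.78 in wild type, with a difference of -0.80 from the 5 mutants (adjusted p 0.000647 by limma).

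Antioxidant systems were then taken list by list, with the median change in yap1 beside the -0.01 of all genes. Over all genes, 0.672% rose in wild type at the threshold. In yap1, 5.34% were higher and 4.72% lower at an unadjusted p below 0.05. The thioredoxin and peroxiredoxin list (13 genes) had 0 members past the threshold in yap1 by limma, and 0 at an unadjusted p below 0.05, with a median of -0.12, against 4 in wild type. TRX2, cytosolic thioredoxin, changed by -0.06 in yap1 and by 0.58 in wild type, and TRR1, its reductase, by -0.12 and 0.71. The TRR1 difference passed (adjusted p 0.000143) and that of TRX2 did not (adjusted p 0.128). The glutathione and glutaredoxin list (26 genes) had 0 in yap1 (1 higher and 1 lower at an unadjusted p below 0.05, median -0.06) and 2 in wild type. GSH1, the first enzyme of glutathione synthesis, changed by -0.33 in yap1 and by 0.50 in wild type, and its difference from the 5 mutants was -1.29 (adjusted p 1.62e-06 by limma). Superoxide dismutases and catalases (6 genes) had 0 in yap1 (1 lower at an unadjusted p below 0.05, median -0.15) and 1 in wild type, and CCP1, cytochrome c peroxidase, changed by -0.42 in yap1.

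Transport and regulator lists held the few called members. In the list of drug efflux genes and targets of Pdr1, Pdr3 or Yrr1 (28 genes), YHK8 and AQR1 rose in yap1 (background 0.371%). The median of that list was -0.00. PDR16 changed by 0.53 (adjusted p 0.0827 by limma), SNQ2 by 0.43 and PDR5 by 0.39, and none of these passed. At an unadjusted p below 0.05 the list had 3 higher and 0 lower (5.34% and 4.72% over all genes). The membrane and weak-acid stress list (15 genes) had AQR1 alone (background 0.371%), with a median of -0.07. Of 35 stress transcription factors only MSN4 passed the threshold, as a fall (background 0.124%). The median of these factors was -0.01. USV1 changed by -0.61 (adjusted p 0.233 by limma) and MSN2 by -0.35 (adjusted p 0.36 by limma). In the list of G1 cyclins and Start genes (22 genes) PCL1 and YOX1 fell in yap1 (background 0.124%), with a median of -0.09, and 5 fell in wild type (background 0.106%). At an unadjusted p below 0.05 this list had 7 lower and 0 higher in yap1, beside 4.72% and 5.34% over all genes. CLN1, a G1 cyclin, stood at 7.18, 7.09 and 7.03 in yap1 with CHP and at 7.64, 7.65 and 7.42 in yap1 controls, a change of -0.47 that did not pass (adjusted p 0.107), and CLB6 changed by -0.23.

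The remaining lists had 0 members past the threshold in yap1 at 3 min by limma. The general stress genes of Msn2 and Msn4 (37 genes) had 6 lower and 1 higher at an unadjusted p below 0.05 (4.72% and 5.34% over all genes) and a median of -0.26, led by GPH1, glycogen phosphorylase, with -0.96 and by TMA10 with 0.98. Ribosome biogenesis (73 genes) had 8 higher and 0 lower at that cutoff and a median of 0.24, against 0.01 in wild type, with changes in yap1 of -0.19 to 0.60. Medians were 0.13 for iron uptake and Aft1 targets (27 genes, with ISU1 at 0.67), 0.01 for Hsf1 chaperones (26 genes) and -0.01 for the proteasome (32 genes). They were 0.00 for sulfur assimilation and methionine (26 genes), -0.02 for pentose phosphate and NADPH supply (19 genes), 0.05 for cell-wall integrity and Rlm1 targets (17 genes) and -0.16 for haploid and mating genes (18 genes). In each of these 7 lists 0 to 2 members had an unadjusted p below 0.05.

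The later samples of the same cultures show what became of the early changes. In yap1, 801 genes passed the threshold at 6 min (14.2%), 1661 at 12 min (29.4%) and 2515 at 20 min (44.5%). YHK8 went on to changes of 5.15, 6.58 and 6.12 at 6, 12 and 20 min in yap1, beside 6.78, 7.21 and 6.93 in wild type. MNC1 had changes of 3.91, 5.30 and 5.43 in yap1 at those times, and DIA1 2.67, 4.57 and 4.58. RTS3 had 1.96, 1.75 and 2.33 in yap1, beside 1.54, 0.61 and 0.04 in wild type. All of these yap1 changes passed the threshold.

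Other early rises did not last. YKR075C had changes of 0.43, -1.06 and -0.53 at 6, 12 and 20 min in yap1, past the threshold at 12 min only. MIG2 had 0.28, -0.87 and -1.26, past it at 12 and 20 min as falls. SUT1 rose further at 6 min (1.66) and then had -0.15 and -0.55, and AQR1 had 0.69, -0.21 and -0.84. MPC3 had 0.91, 0.08 and 0.47, past the threshold at 6 min only. YGR035C stayed higher, with 2.12, 0.81 and 0.73. Among the falls, PCL1 had -1.20, -1.52 and -2.41, YOX1 -2.03, -2.31 and -2.85, and MSN4 -1.02, -2.08 and -2.00.

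**Figure D4:**
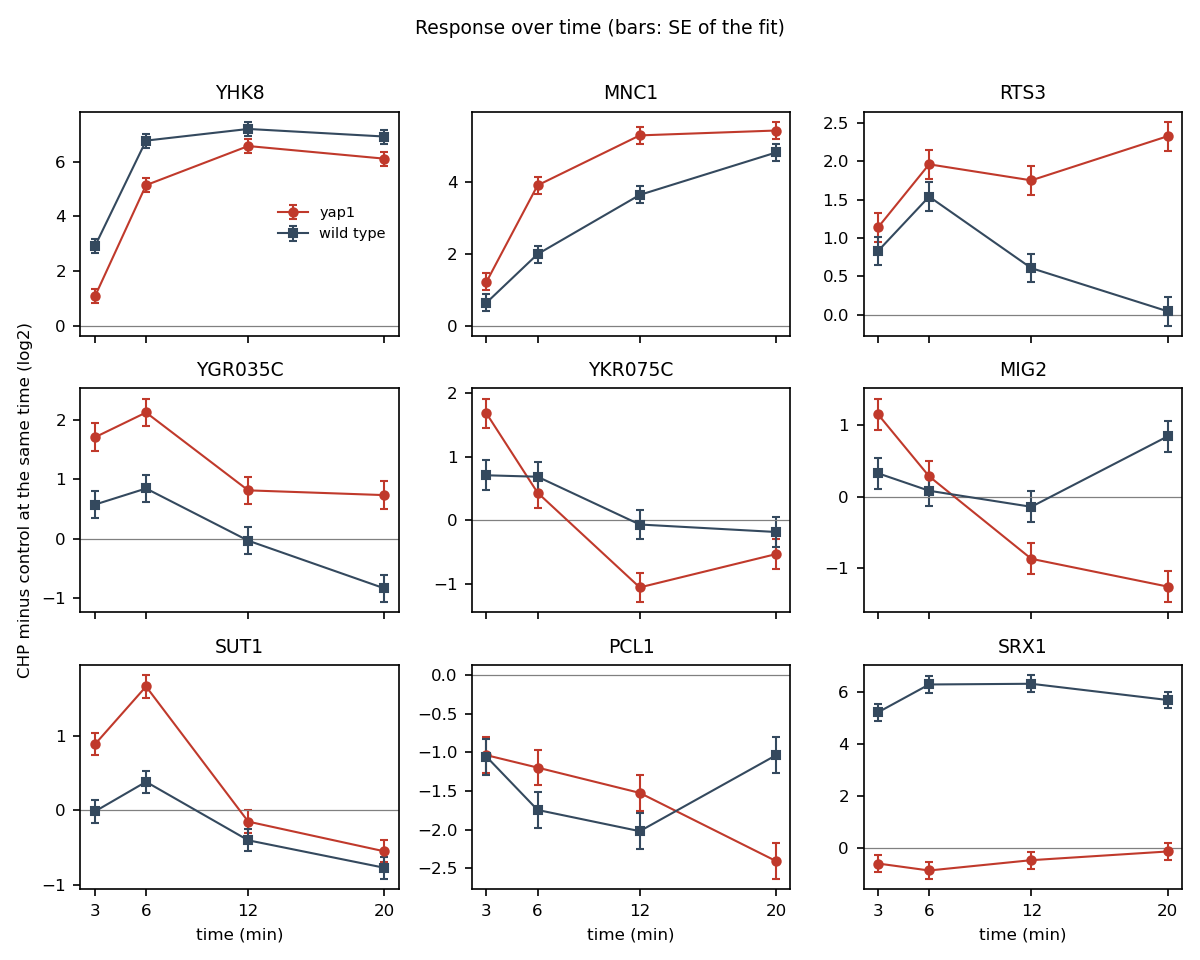
Change (CHP minus control at the same time, log2, vertical axis, a scale of its own in each panel) at 3, 6, 12 and 20 min in yap1 (circles) and wild type (squares) for 9 genes, with the SE of the fit as bars and 3 cultures per arm. YHK8 reaches 6.58 in yap1 at 12 min, YKR075C and MIG2 turn from rises at 3 min to values below 0, and SRX1 stays at or below -0.13 in yap1. The panels were chosen after the values were seen.

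Genes that wild type raised at 3 min split by time in yap1. ROX1 had yap1 changes of 0.47, 2.12 and 2.73 at 6, 12 and 20 min, DDR48 -0.33, 1.32 and 2.16, and FMP48 2.13, 4.10 and 4.63. ISU2 had 0.25, 1.06 and 0.99 and GRE2 0.14, 0.74 and 1.23. These passed the threshold at 12 and 20 min, and FMP48 already at 6 min. SRX1 had -0.86, -0.47 and -0.13, FRM2 -0.20, 0.26 and -0.15, and GPX2 -0.23, 0.24 and 0.37, none of which passed at any of these times.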

How the data were processed

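RNA levels were measured on Affymetrix Yeast Genome S98 arrays, 1 array per culture and time. The deposited log2 values were made by the authors with RMA, per the submitters' processing notes, with no version or settings stated there. The table holds 9335 probe sets, 60 of them controls, with values from 1.59 to 14.57. The platform annotation names 1 gene for 6504 probe sets, several for 328 and none for 2443. Of several probe sets for a gene (315 genes) the one with the highest mean was kept, which left 5656 genes, named through the RefSeq assembly R64. Genome coordinates, promoter motifs and raw array files were not analysed here.

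Samples were grouped by their titles. Changes were fitted with limma 3.58.1 in R 4.3.3 over all 210 arrays as 70 group means (140 residual degrees of freedom, two-sided, Benjamini-Hochberg over all genes, threshold 0.05). SE and 95% intervals come from this fit, and the number of arrays limits the precision. The contrasts were CHP minus control in yap1 and in wild type at 3 min, the yap1 response minus that of wild type and minus the mean of the 5 other mutants, and the yap1 arms at 0 min. Gene lists have no test. The members and lists were chosen with earlier results of these data known. The rule for named genes took the 20 largest rises and 10 largest falls in yap1, the 15 largest wild-type rises and 5 largest falls. It also took the 10 largest differences per contrast and YAP1, YHK8 and SRX1. In each list it took the called members or up to 4 with the largest change. Not every gene of the rule is printed, and genes named outside it include TRX2, TRR1, PDR5, YIL165C, NIT1 and GPM3. Figures used matplotlib 3.10.9. The code was tested on simulated data. Alternatives were other normalizations, probe set rules, arrays in the fit, empirical Bayes settings, a filter on dim genes, the culture as a random block, a replicate block, change from each culture's own 0 min array, and leaving out each culture.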

Additional observations from a re-analysis of the deposited data

Results flagged for a closer look

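The yap1 response differed from the wild-type response in 20 genes and from the mean of the 5 other mutants in 50, each by the test of the difference itself (limma, adjusted over all genes). The largest differences from wild type were SRX1 with -5.81, GRE2 -2.34, GPX2 -2.27, YHK8 -1.84, FRM2 -1.79, YLR108C -1.76, YML131W -1.69, ISU2 -1.65, DDR48 -1.61 and ROX1 -1.52 on the log2 scale. The 3 that were larger in yap1 were APT2 with 1.00, RRP45 with 0.93 and SUT1 with 0.90. Against the 5 other mutants the values were SRX1 -6.05, GRE2 -2.78, YLR108C -2.67, YML131W -2.39, GPX2 -1.99, YHK8 -1.82, ROX1 -1.82, MRX16 -1.79, ISU2 -1.72 and DDR48 -1.65, and YNCL0009C 1.15 and RRP45 0.69 were larger in yap1. The APT2 value rests on yap1 control replicate 2, without which it was 0.43.

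Outside the gene table, 1 probe set that names no single gene was higher by 0.80 in yap1 CHP cultures (5.54, 5.45 and 5.32) than in yap1 controls (4.46, 4.98 and 4.49), with an adjusted p of 0.0487 by limma over 9275 probe sets. Its change in wild type was 0.89, which also passed the threshold (adjusted p 0.00672 by limma).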

How the results depend on the processing

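The 28 genes of the yap1 response at 3 min became 56 with quantile normalization (39 higher, 17 lower) and 58 with a replicate block. Both kept all 28. The 6 yap1 arrays at 3 min alone gave 54, with 24 of the 28 among them. A fit on the yap1 arrays of all times gave 28 genes, with 21 of the 28 among them. That fit lost the calls of APT2, PDE2, SUR1, GPM3, MSN4, CDC6 and RSF1. Deviations of same-numbered yap1 cultures at 3 min correlated at -0.15, 0.03 and -0.20, and those of wild type at 0.47, -0.10 and 0.54. These mixed values do not settle whether the replicate numbers pair the cultures. The replicate block gave 44 genes for the difference from wild type (20 without it), 73 for wild type (44) and 804 for the yap1 arms at 0 min (357). Quantile normalization gave 31 for the difference from wild type. Measured from each culture's own 0 min array, the yap1 response held 166 genes, 36 higher and 130 lower, with 16 of the 28 among them, and the difference from wild type held 17, with 6 of its 20 among them. Without control replicate 1, an alternative added after seeing the data, the yap1 response from 0 min held 5 genes, all higher. Without that culture and wild-type CHP replicate 1, also added then, the difference from wild type held 18, with 13 of its 20 among them. Leaving out 1 culture at a time gave 15 (without CHP replicate 2) to 31 genes for the yap1 response, with 18 without control replicate 2. It gave 15 to 37 for the difference from wild type, 41 to 50 for that from the 5 mutants, 19 to 81 for wild type and 0 to 1389 for the yap1 arms at 0 min, with 0 also without the single 0 min array of control replicate 1. The number of 50 genes against the 5 mutants stayed within 1.5 times under each alternative run. Of the 73 single-gene results past the threshold 0 changed sign, and of the 66 not past it 13 did, among them the differences from wild type of DIA1, PCL1, YOX1 and RTS3. Of the values of single genes under alternatives, 1988 kept their side of the threshold, 160 fell below it and 19 rose past it.

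Limits. There were 3 cultures per arm, and the 0 min array that stood apart touches each value taken from 0 min. RMA compresses dim probe sets, so small changes of dim genes can be missed. AAD4, AAD6 and AAD14 are near copies whose probe sets may read each other. The fit takes the 5 samples of each culture as separate, and their estimated correlation was 0.26.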

Other observations

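Among the 2771 probe sets that name no single gene, 2 were lower in yap1 with CHP at 3 min, with changes of -1.12 and -1.41. Both were dim, with 2.32 to 4.88 over the 6 cultures, and their wild-type changes in the same order were 0.51 and -0.08, which did not pass the threshold.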
